A study of Bos taurus with 20 samples.

Results

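Axon guidance genes encode the secreted and membrane-bound ligands, and the surface receptors, by which cells attract, repel or sort from one another. They were first described as the cues that steer growing nerve fibres and are used by many other cell types. The rows of a bovine count table were searched for the gene symbols of the semaphorins of classes 3 to 7, the plexins, the neuropilins, the ephrins and Eph receptors, the Slits and Robo receptors, the netrins (with the netrin-G genes) and the UNC5 receptors. This gave 70 genes of the 33063 named genes in the table, 37 of them ligands and 33 receptors. Of the 70, 51 passed the filter on low counts and were tested.

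Semaphorins signal through plexins, which act on small GTPases and integrin adhesion inside the cell, and most secreted class 3 semaphorins need a neuropilin as co-receptor. Ephrins are bound to the membrane and activate Eph receptor tyrosine kinases on the neighbouring cell, with signals running in both directions, and so act in the sorting of cell populations and in forming blood vessels. Slits signal through Robo receptors, and netrins through UNC5 receptors, DCC or neogenin. In mesenchymal stem cells (MSCs), the fibroblast-like progenitors grown from adipose tissue and other connective tissues, genes of these families have been tied to migration, adhesion and the choice of lineage.

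RNA from 20 clones of bovine adipose MSCs was sequenced in 1 library each. A clone had grown from a single sorted cell in medium with serum and basic fibroblast growth factor. Per the paper, conditioned medium from MSC cultures of the same animal was part of it. The RNA of a clone came from cells that had not been differentiated. The 10 adipogenic (A) clones had formed fat-laden cells when tested for differentiation and the 10 non-adipogenic (N) clones had not. From animals 17 and 20 came 1 clone of either kind, while 4 of either kind were taken from animal 22 and likewise from animal 23. The animals were crossbred calves and the fat was visceral, in both groups alike. The design asks which genes differ between MSC clones with and without the capacity to become adipocytes. A clone descends from 1 cell, so differences between clones of a group include differences between the founding cells, and in animals 17 and 20 the clone and the animal cannot be told apart. Nothing in the labels gives a second culture of any clone, so p-values measure the spread between clones.

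Total counts per clone ranged from 14908802 to 43111345 in N clones and from 14615493 to 29185355 in A clones. Levels are given as CPM, a clone's counts scaled to a common library size after correction for library composition with TMM factors. They compare 1 gene between clones, not different genes, since no gene lengths were used. In these libraries 3 counts, the bound taken for a gene with 0 counts (counting error only), corresponded to between 0.0763 and 0.216 CPM. Fold changes are log2 of A against N clones with their standard error (SE, n = 10 clones per group), and a gene was called changed at an adjusted p under 0.05 in edgeR's quasi-likelihood test with animal as a block and Benjamini-Hochberg adjustment over all 12900 genes tested. Fewer cells of a type and less RNA per cell cannot be told apart in such bulk samples. All 6 MSC markers were detected and none was called, but some were low in an N clone. The lowest N values of THY1, NT5E and ENG were 0.395, 0.508 and 19.1 CPM, against N medians of 50.1, 83.2 and 347 CPM. Their lowest A values were 18.0, 65.2 and 242 CPM. For PDGFRA, ITGB1 and CD44 the lowest N values were 84.5, 1584 and 231 CPM. Of the endothelial markers CLDN5 was at 0 counts in every clone and CDH5 reached at most 0.307 CPM, while VWF reached 30.1 CPM in N clones and PECAM1 16.3 CPM in A clones (log2 fold change 2.49, SE 0.938, adjusted p = 0.0675). The sum over the 6 was 1.13 to 40.8 CPM in N clones and 4.99 to 24 CPM in A clones. Of the glial markers SOX10 was at 0 counts throughout, while NGFR had medians of 43.3 and 26 CPM in N and A clones, and their sum was 21.5 to 161 CPM in N clones and 20.4 to 87.0 CPM in A clones. N clones 22-5 and 22-9 stood apart, with 8497 and 5874 CPM summed over 6 mesothelial markers, against 8.82 to 276 in the other N clones. Among A clones, 22-11 and 22-16 had 976 and 887 CPM and the others at most 357. Of the 6 mesothelial markers only MSLN was called, lower in A clones (log2 fold change -1.97, SE 0.645, adjusted p = 0.0393). The others differed in sign, with KRT18, WT1 and UPK3B at -2.38, -1.79 and -0.36 and KRT8 and KRT19 at 0.72 and 1.16. Only 1 of 6 macrophage, 2 of 6 glial and 1 of 6 neuronal markers passed the filter. CD68 and S100B rose, while NGFR (log2 fold change -0.92, adjusted p = 0.257) and the neuronal TUBB3 were not called. Untested CSF1R, a macrophage marker, was at 0 to 0.255 CPM in N clones and 0.476 to 2.38 CPM in A clones. The macrophage sum was 0.885 to 10.7 CPM in N clones and 2.82 to 12.6 CPM in A clones. The neuronal sum was 3.77 to 30.8 CPM in N clones and 7.14 to 82.6 CPM in A clones. The proliferation markers MKI67, TOP2A and CDK1 fell in A clones, and of the smooth muscle and pericyte markers CSPG4, NOTCH3 and MYH11 rose. The summed level of the 6 proliferation markers was 102 to 492 CPM in N clones and 24.2 to 295 CPM in A clones. Over the 6 smooth muscle and pericyte markers it was 103 to 5789 CPM in N clones and 857 to 8439 CPM in A clones. The part of these differences in the results on guidance genes was not tested.

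Of the 51 guidance genes tested, 8 were called changed. Higher in A clones were the receptor ROBO1, the transmembrane ligands EFNB1, EFNB3 and SEMA6D and the membrane-anchored ligand SEMA7A. Lower in A clones were the receptors EPHB4 and PLXNB2 and the secreted ligand SEMA3E. The 8 are 15.7% of the guidance genes tested, while 20.6% of all genes tested were called, 10.3% in each direction. Which of these shares was higher depended on the fit: DESeq2 called 31.4% of the guidance genes and 27.4% of all genes, and edgeR without the animal block 19.6% and 16.8%. Called by at least 2-fold were 7 of the 51 guidance genes, or 13.7%, against 5.76% of all genes tested. At an unadjusted p under 0.05 there were 17 guidance genes, or 33.3%, against 36.1% of all genes tested. The median absolute log2 fold change was 0.70 over the 51 guidance genes and 0.25 over all genes tested, and the signed medians were 0.03 and -0.01. By role, 5 of 30 ligands and 3 of 21 receptors tested were called.

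**Figure D1:**
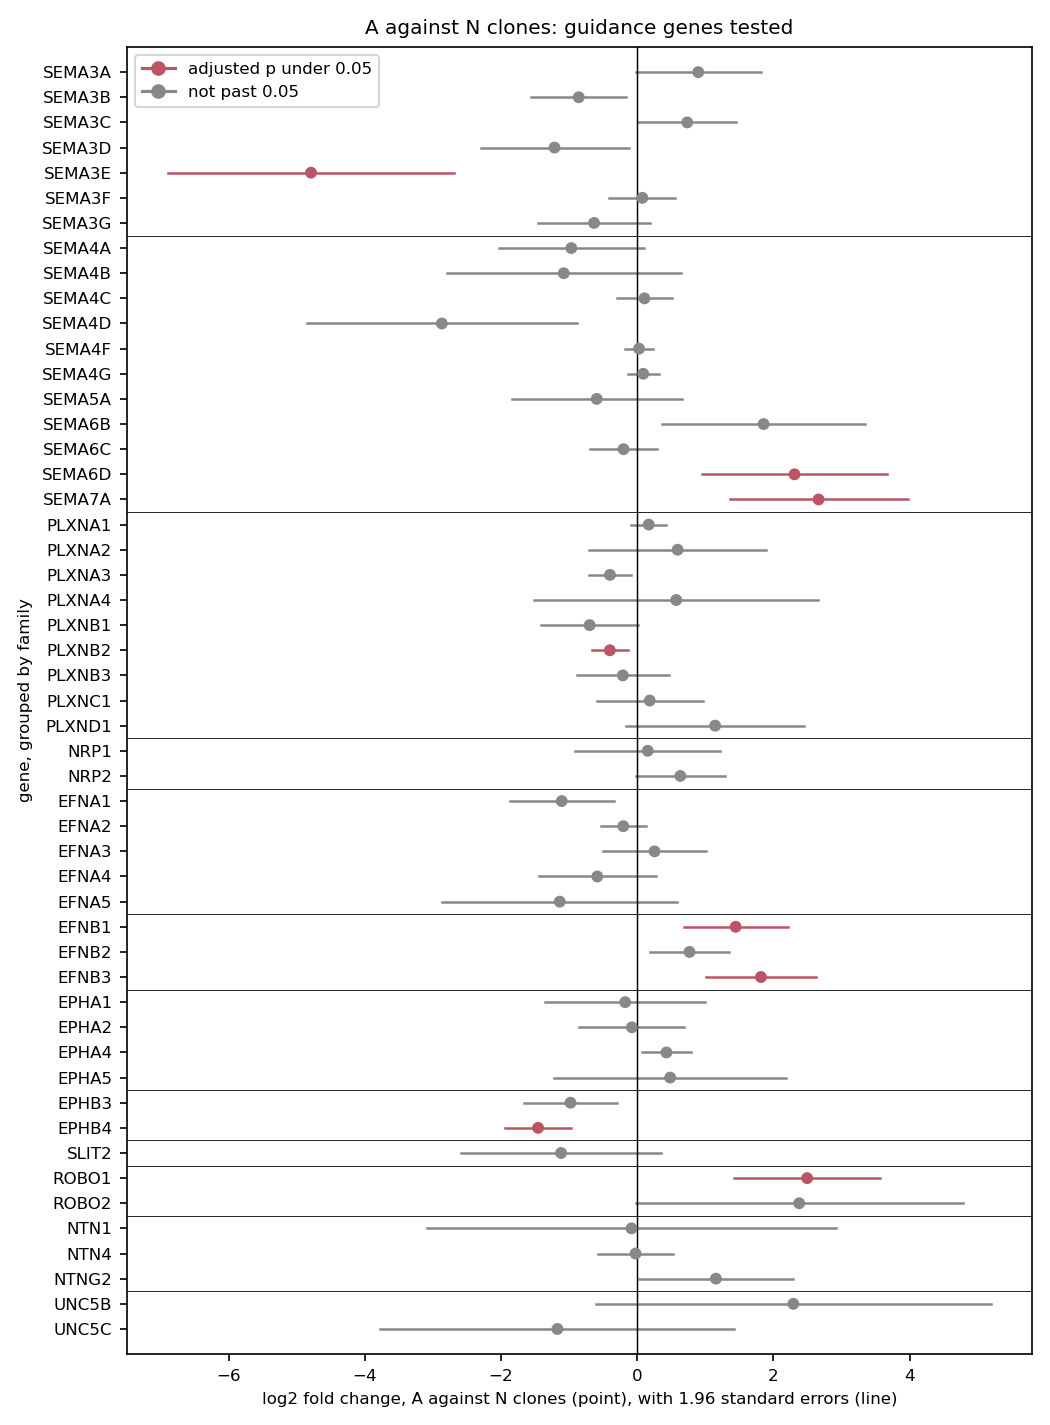
Log2 fold change of A against N clones for the 51 guidance genes tested (x axis), grouped by family (y axis). Points are edgeR estimates, lines are approximate 95% intervals from the standard error, and red marks an adjusted p under 0.05. The 8 red genes run from SEMA3E at -4.79 to SEMA7A at 2.66, and many grey genes have intervals several log2 units wide.

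Of 3 ephrin-B genes 2 rose in A clones, and of the 2 EphB receptors tested 1 fell. EPHB4, the receptor that pairs with EFNB2 in forming arteries and veins, had medians of 39.1 CPM in N clones (24.2 to 148) and 18.8 CPM in A clones (6.33 to 23.1). The groups did not overlap, since the highest A clone was under the lowest N clone. The log2 fold change was -1.45 (SE 0.249, adjusted p = 0.00170 by the quasi-likelihood test of edgeR). Its A clones were lower in each of the 4 animals, by mean log2 CPM differences of -2.97, -2.68, -1.03 and -1.19 in animals 17, 20, 22 and 23. N clone 20-15 held the highest value, and the difference stayed at -1.14 with animals 17 and 20 left out.

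EFNB3, a transmembrane ligand of EphB receptors, had a median of 0.388 CPM in N clones (0.0631 to 0.729) and 1.39 CPM in A clones (0.588 to 3.37). These levels rest on 1 to 16 counts per N clone and 10 to 55 counts per A clone. The groups overlapped, with 7 of 10 A clones above the N range. The estimated log2 fold change was 1.82 (SE 0.410, adjusted p = 0.00692, same test). The A clones were higher in animals 20, 22 and 23, by 0.55, 1.58 and 2.40 on the log2 CPM scale, while the difference was -0.05 in animal 17.

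EFNB1, an ephrin-B ligand known for setting boundaries between cell populations, had a median of 23.0 CPM in N clones (4.61 to 51.8) and 55.3 CPM in A clones (37.8 to 148), with 6 A clones above every N clone. The log2 fold change was 1.45 (SE 0.389, adjusted p = 0.0170, same test). In animals 22 and 23 its A clones were higher by 1.75 and 2.12 log2 units, while in animals 17 and 20 the differences were -0.01 and -0.10. Without N clones 22-5 and 22-9 the log2 fold change of EFNB1 was 1.41, and the adjusted p was 0.0508 (same test). EFNB2, the main partner of EPHB4, had medians of 85.9 CPM in N clones (9.48 to 187) and 122 CPM in A clones (27.7 to 194). Its log2 fold change of 0.77 (SE 0.295, adjusted p = 0.0725) did not pass. The other EphB receptor tested, EPHB3, had a log2 fold change of -0.98 (SE 0.350, adjusted p = 0.0558), and 6 of its A clones were under the N range. DESeq2 called both EFNB2 and EPHB3 (adjusted p = 0.0277 and 0.0167), and limma-voom called EPHB3 (adjusted p = 0.0376).

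The ephrin-A ligands, which are held to the membrane by a lipid anchor, and the EphA receptors gave no call in the 9 genes tested, of which 2 were at an unadjusted p under 0.05, and DESeq2 called 1, EFNA1. EFNA1 had medians of 4.46 CPM in N clones (1.12 to 11.0) and 1.93 CPM in A clones (1.18 to 4.36), a log2 fold change of -1.11 (SE 0.389, adjusted p = 0.0521). EFNA2 had a log2 fold change of -0.20 (SE 0.169) and EFNA5 one of -1.14 (SE 0.881). EFNA5 was highest in N clone 23-10 with 14.1 CPM, and the other N clones held at most 3.72 CPM. Among the receptors, EPHA2 spanned 57.9 to 596 CPM among N and 144 to 423 CPM among A clones, with a log2 fold change of -0.08 (SE 0.393). EPHA4, a receptor that binds ephrins of both classes, had a log2 fold change of 0.43 (SE 0.182, adjusted p = 0.0997), and EPHA5 one of 0.48 (SE 0.869).

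**Figure D2:**
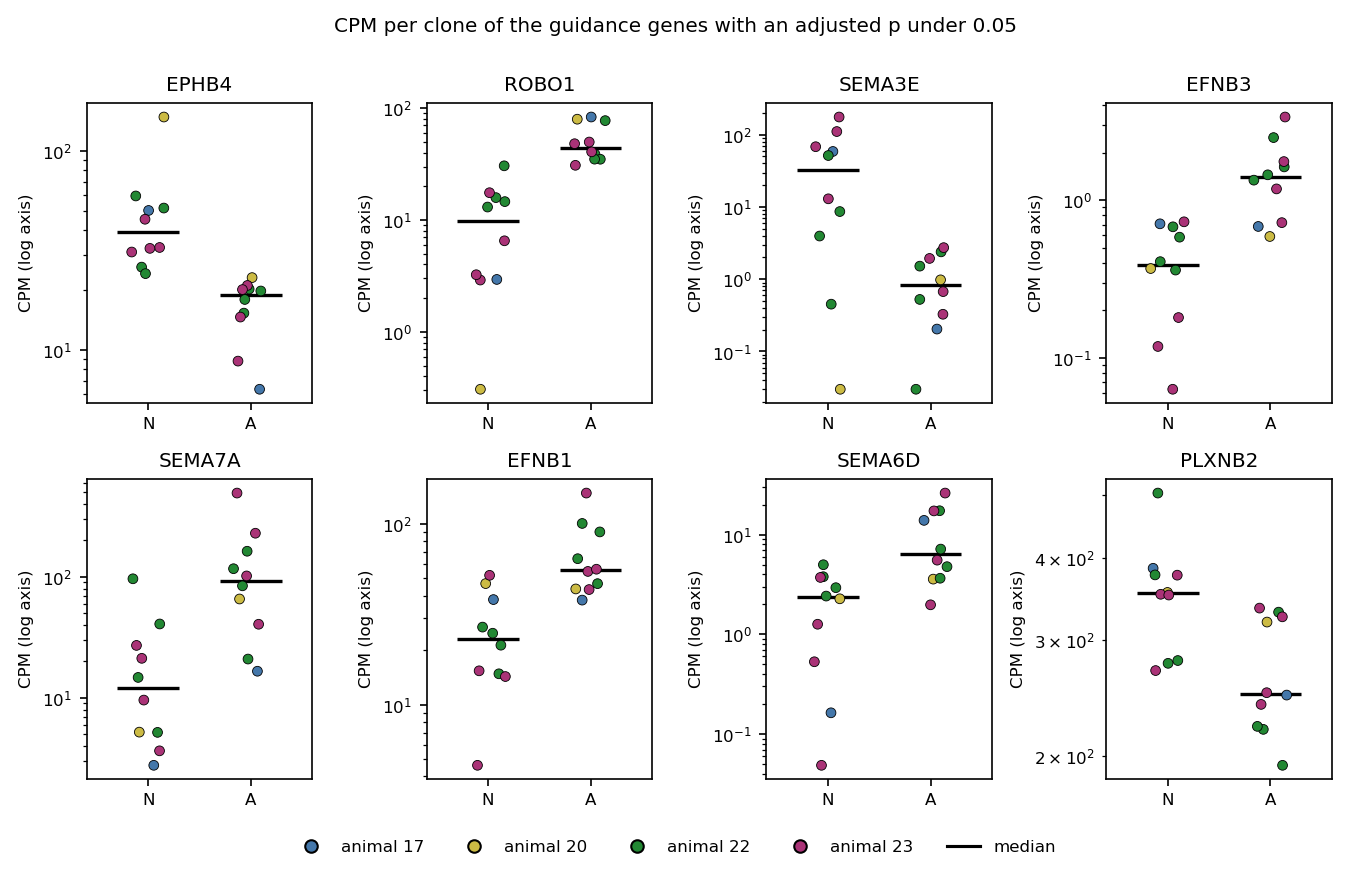
CPM per clone (log y axis; each panel has its own range, and values under 0.03 are drawn at 0.03) of the 8 guidance genes called changed, for 10 N and 10 A clones coloured by animal, with the group median as a bar. EPHB4 and ROBO1 separate the groups, while SEMA3E has 8 N clones above and 2 among the A clones.

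Of the Slit and Robo genes, 3 were tested and 1 was called. ROBO1, a Slit receptor of the immunoglobulin superfamily, had a median of 9.78 CPM in N clones (0.307 to 30.5) and 44.3 CPM in A clones (30.8 to 83.2). The groups did not overlap, though the lowest A clone was only just above the highest N clone, and the groups overlapped when CPM was computed without TMM factors. The log2 fold change was 2.5 (SE 0.546, adjusted p = 0.00600 by the quasi-likelihood test of edgeR). In each animal the A clones were higher, by mean log2 CPM differences of 4.77, 7.60, 1.32 and 2.83 in animals 17, 20, 22 and 23. ROBO1 and EPHB4 were the 2 guidance genes of 51 whose groups did not overlap, or 3.92%, against 0.318% of all genes tested.

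ROBO2 and SLIT2 did not pass in edgeR's quasi-likelihood test and ranged widely between clones, while DESeq2 called ROBO2 (adjusted p = 0.0358), as did the edgeR fit of animal 23 alone (adjusted p = 0.00786). ROBO2, the second widely used Slit receptor, had a log2 fold change of 2.38 (SE 1.22, adjusted p = 0.169). It was at 0 counts in all 4 N clones of animal 23 and at 7.49 to 10.6 CPM in N clones 17-23, 20-15, 22-5 and 22-9, while 9 of 10 A clones held 2.94 to 37.5 CPM and A clone 17-57 held 0 counts. SLIT2, a secreted Robo ligand, had medians of 123 CPM in N clones (1.11 to 455) and 82.6 CPM in A clones (0.409 to 205), a log2 fold change of -1.12 (SE 0.750, adjusted p = 0.294). Its 2 lowest values were those of N clone 20-15 and A clone 17-57, and with animals 17 and 20 left out the log2 fold change was -1.13 with an SE of 0.378 and an adjusted p of 0.0492.

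SLIT3, another secreted Robo ligand, did not pass the count filter but was present in most A clones. It had a median of 0 CPM in N clones, with at most 0.509 CPM, and a median of 8.77 CPM in A clones, with up to 26.1 CPM. Of the 10 A clones 7 exceeded all N clones, at 2.45 to 26.1 CPM, while A clone 22-121 held 0.183 CPM and A clones 20-106 and 23-108 held 0 counts. Fitted without the filter, SLIT3 had a log2 fold change of 5.99 (SE 1.22, adjusted p = 0.00655 by the quasi-likelihood test of edgeR), where 11.8% of the 23383 genes with a count were called.

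Of the 7 class 3 semaphorins, the secreted class, 1 was called. SEMA3E, which binds the receptor PLXND1 directly and does not need a neuropilin, had a median of 32.3 CPM in N clones (0 to 176) and 0.827 CPM in A clones (0 to 2.74). It was above every A clone in 8 of the 10 N clones, while N clone 20-15 held 0 counts and N clone 22-5 held 0.452 CPM. The log2 fold change of -4.79 (SE 1.07, adjusted p = 0.00686, same test) was the lowest of all 12900 genes tested. In animals 17, 22 and 23 the mean log2 CPM differences were -7.57, -2.98 and -5.77, and in animal 20, where the 1 N clone was at 0, the difference was 3.38. Limma-voom, which took animal as random, gave SEMA3E a log2 fold change of -4.31 (SE 2.38) and an adjusted p of 0.199.

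The other class 3 semaphorins did not pass in edgeR's quasi-likelihood test, while DESeq2 called SEMA3B (log2 fold change -0.85, adjusted p = 0.0484). SEMA3A, a repellent cue that acts through NRP1, had a log2 fold change of 0.90 (SE 0.468, adjusted p = 0.176), and SEMA3C one of 0.74 (SE 0.366, adjusted p = 0.157). SEMA3B and SEMA3D had log2 fold changes of -0.86 (SE 0.357, adjusted p = 0.0947) and -1.21 (SE 0.554, adjusted p = 0.125). In the RefSeq gene table SEMA3D, SEMA3A and SEMA3E follow each other as neighbouring coding genes, and the estimates for the 3 neighbours were -1.21, 0.90 and -4.79.

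Of the 11 membrane-bound semaphorins tested, of classes 4 to 7, 2 rose and none fell in edgeR's quasi-likelihood test, while DESeq2 also called SEMA6B higher and SEMA4D lower. SEMA7A, a lipid-anchored semaphorin that binds PLXNC1 and integrins, had a median of 12.2 CPM in N clones (2.78 to 96.4) and 93.0 CPM in A clones (16.6 to 492), with 5 A clones above the N range. The log2 fold change was 2.66 (SE 0.666, adjusted p = 0.0120 by the quasi-likelihood test of edgeR), and its A clones were higher in all 4 animals, by 1.69 to 3.63 log2 units. Without N clones 22-5 and 22-9 and A clones 22-11 and 22-16, SEMA7A had a log2 fold change of 2.76 and an adjusted p of 0.0501.

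SEMA6D, a transmembrane semaphorin that binds plexins of class A, had a median of 2.35 CPM in N clones (0.0486 to 4.99) and 6.35 CPM in A clones (1.98 to 26.1), with 6 A clones above the N range. The estimate was 2.31 (SE 0.691, adjusted p = 0.0274, same test), with differences of 5.71, 0.63, 0.98 and 3.34 on the log2 CPM scale in animals 17, 20, 22 and 23. Leaving out N clone 23-22 moved SEMA6D to an adjusted p of 0.0514. SEMA6B, of the same class, had medians of 1.68 CPM in N clones (0 to 3.94) and 6.84 CPM in A clones (0.136 to 15.1). Its log2 fold change of 1.86 (SE 0.762, adjusted p = 0.0905) did not pass, although 7 A clones lay above every N clone. A clone 17-57 was the lowest A clone of SEMA6B, with 2 counts.

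SEMA4D, a ligand of plexin-B receptors known from immune cells and bone, had medians of 2.46 CPM in N clones (0 to 13.6) and 0.210 CPM in A clones (0 to 1.26). Its log2 fold change of -2.87 (SE 1.01, adjusted p = 0.0533) did not pass. The 2 highest N clones were 22-5 and 22-9, at 12.6 and 13.6 CPM, and 3 N clones held 0 counts. SEMA4A had a log2 fold change of -0.97 (SE 0.545, adjusted p = 0.210), with 6 A clones below every N clone, and SEMA5A, a semaphorin with thrombospondin repeats, one of -0.59 (SE 0.638, adjusted p = 0.526).

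Of 9 plexins and 2 neuropilins, all tested, 1 was called. PLXNB2, a receptor of class 4 semaphorins, had a median of 354 CPM in N clones (270 to 503) and 248 CPM in A clones (193 to 336), and 6 A clones were under the whole N range. The estimated log2 fold change was -0.40 (SE 0.135, adjusted p = 0.0440, same test). The call of PLXNB2 was lost in 12 of 20 fits made with 1 clone omitted, and without N clones 22-5 and 22-9 the log2 fold change of PLXNB2 was -0.26 with an adjusted p of 0.141.

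PLXND1, the receptor of SEMA3E, had medians of 45.7 CPM in N clones (1.02 to 199) and 125 CPM in A clones (40.9 to 240). Its estimate was a log2 fold change of 1.15 (SE 0.669, adjusted p = 0.226), and the 3 lowest values were those of N clones 22-5, 23-74 and 23-22. PLXNC1, the receptor of SEMA7A, had medians of 113 CPM in N clones (3.84 to 278) and 135 CPM in A clones (87.7 to 209), a log2 fold change of 0.18 (SE 0.398). The estimate of PLXNA3 was -0.40 (SE 0.154, adjusted p = 0.0739) and that of PLXNA2 was 0.59 (SE 0.661, adjusted p = 0.542). The neuropilins NRP1 and NRP2, co-receptors of class 3 semaphorins and of vascular endothelial growth factor, had log2 fold changes of 0.16 (SE 0.545) and 0.63 (SE 0.333, adjusted p = 0.179). NRP1 ranged from 4.24 to 538 CPM in N clones and from 46.4 to 409 CPM in A clones.

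None of the 5 netrin and UNC5 genes tested was called in edgeR's quasi-likelihood test, and 0 were at an unadjusted p under 0.05. DESeq2 called 1 of them, UNC5B, and limma-voom called 0. The netrin gene NTN1, the founding netrin, ranged from 1.47 to 567 CPM in N clones and from 6.94 to 339 CPM in A clones, with a log2 fold change of -0.08 (SE 1.53). NTN4, a netrin of basement membranes, had medians of 268 and 279 CPM in N and A clones and a log2 fold change of -0.02 (SE 0.281). NTNG2, a lipid-anchored netrin relative, had medians of 5.69 and 15.5 CPM and a log2 fold change of 1.16 (SE 0.575, adjusted p = 0.157). The receptor UNC5B had medians of 0.696 CPM in N clones (0.0600 to 150) and 4.71 CPM in A clones (0.365 to 151), a log2 fold change of 2.29 (SE 1.48, adjusted p = 0.274). Its family member UNC5C had medians of 7.57 CPM in N clones (0.0600 to 118) and 5.73 CPM in A clones (0 to 19.8), a log2 fold change of -1.17 (SE 1.33).

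**Figure D3:**
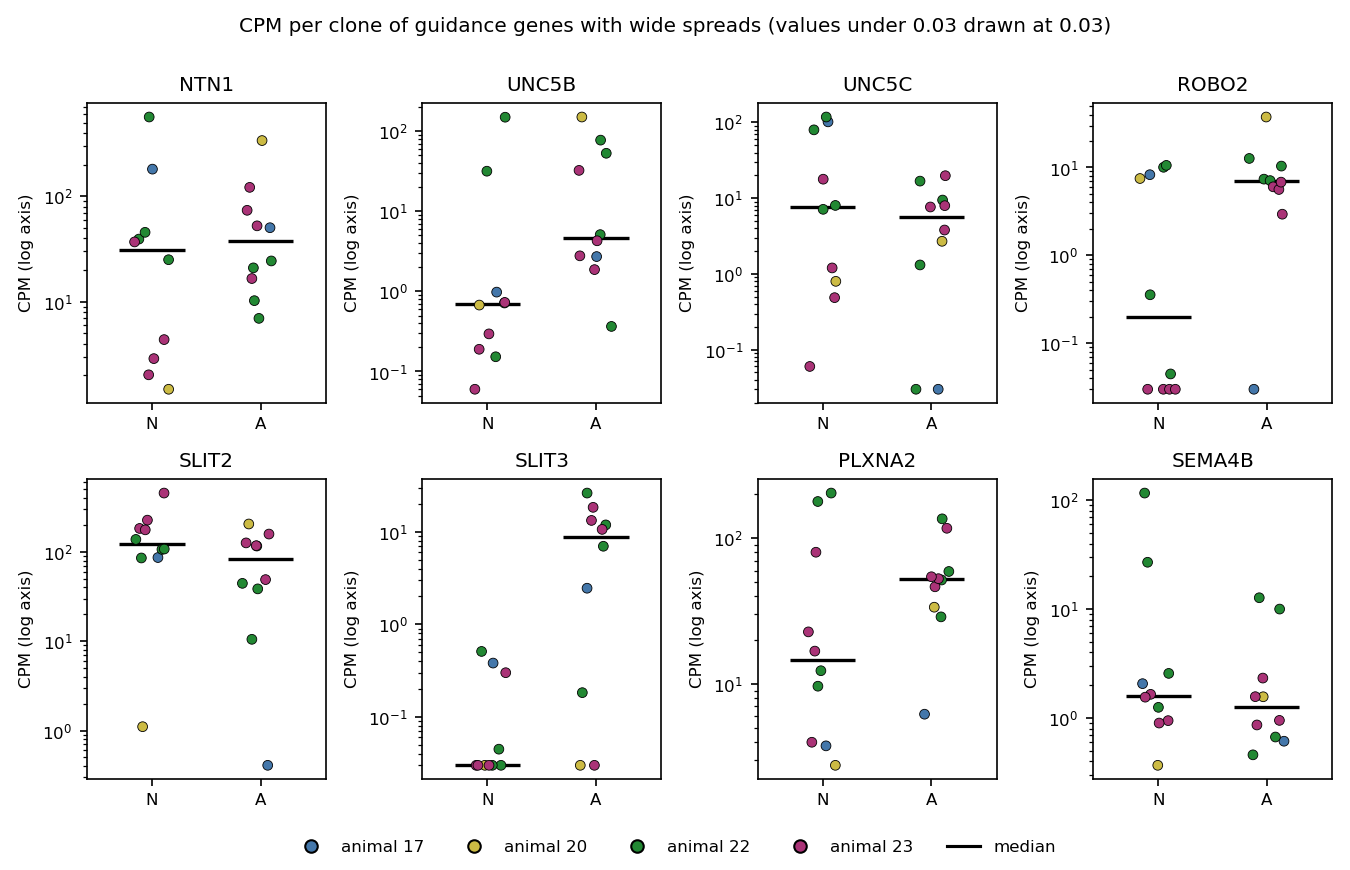
CPM per clone (log y axis; each panel has its own range, and values under 0.03 are drawn at 0.03) of 8 guidance genes with wide spreads between clones, for 10 N and 10 A clones coloured by animal, with the group median as a bar. SLIT3 lies at or below 0.509 CPM in every N clone and above 2 CPM in 7 A clones, while clones of 1 group differ by over 100-fold in NTN1, UNC5B and SLIT2.

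The filter left out 19 of the 70 guidance genes. EPHA8 and UNC5D had 0 counts in every clone, and EPHA6, EPHB1, EPHB2, EPHB6, NTN5, ROBO4 and SLIT1 reached at most 7 counts in any clone. ROBO4, a Robo gene of blood vessels, was thus near 0 throughout. The other 10 reached at least 10 counts somewhere, and several of them were present in 1 or a few clones. EPHA3 was at 27.0 CPM (495 counts) in N clone 17-23 and at or below 0.819 CPM in the other 19 clones. SEMA5B was at 8.53 CPM in N clone 22-5 and 10.7 CPM in A clone 22-121, with group medians of 0.0434 and 0.556 CPM. SEMA6A was at 7.25 CPM in N clone 20-15 and 6.52 CPM in A clone 22-121, with medians of 0.0467 and 0.170 CPM. EPHA7 reached 7.14 CPM in an N clone, with 4.83 CPM as its highest A value, ROBO3 reached 3.11 and 1.45 CPM, and UNC5A reached 0.565 and 0.343 CPM. Beside SLIT3, the fit without the filter called EPHA10, with 0 to 10 counts in N clones and 3 to 13 in A clones (log2 fold change 1.44, SE 0.462, adjusted p = 0.0492), and NTNG1, with up to 3 counts in N clones and up to 40 in A clones (log2 fold change 3.72, SE 0.966, adjusted p = 0.0196). It also called EPHA6, which had 0 counts in N clones and 1 or 2 counts in 6 A clones, too few for a fold change. NTN3 had a log2 fold change of 1.21 (SE 0.511, adjusted p = 0.132) in the same fit, with 0 to 21 counts in N clones and 4 to 16 in A clones.

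The guidance genes varied between clones of 1 group more than the typical gene did. The median SD of log2 CPM was 0.81 in A clones and 1.24 in N clones over the 51 genes tested, against 0.34 and 0.38 over all genes tested. Between the lowest and highest clone, the median range of a guidance gene was 2.55 log2 units in A clones and 4.29 in N clones, against 1.06 and 1.19 for all genes tested. The mean log2 CPM of the median guidance gene was 3.60, against 4.46 over all genes tested and the part of this lower level in the ranges was not tested. The range was wider in N than in A clones for 42 of 51 guidance genes. It exceeded 16-fold in 26 of them in N clones and in 18 in A clones. In N clones the widest were SEMA3E, UNC5B and UNC5C, with ranges of 10.72, 9.83 and 9.49 log2 units. In A clones they were SLIT2, ROBO2 and UNC5B, with 8.64, 8.49 and 8.33 log2 units.

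**Figure D4:**
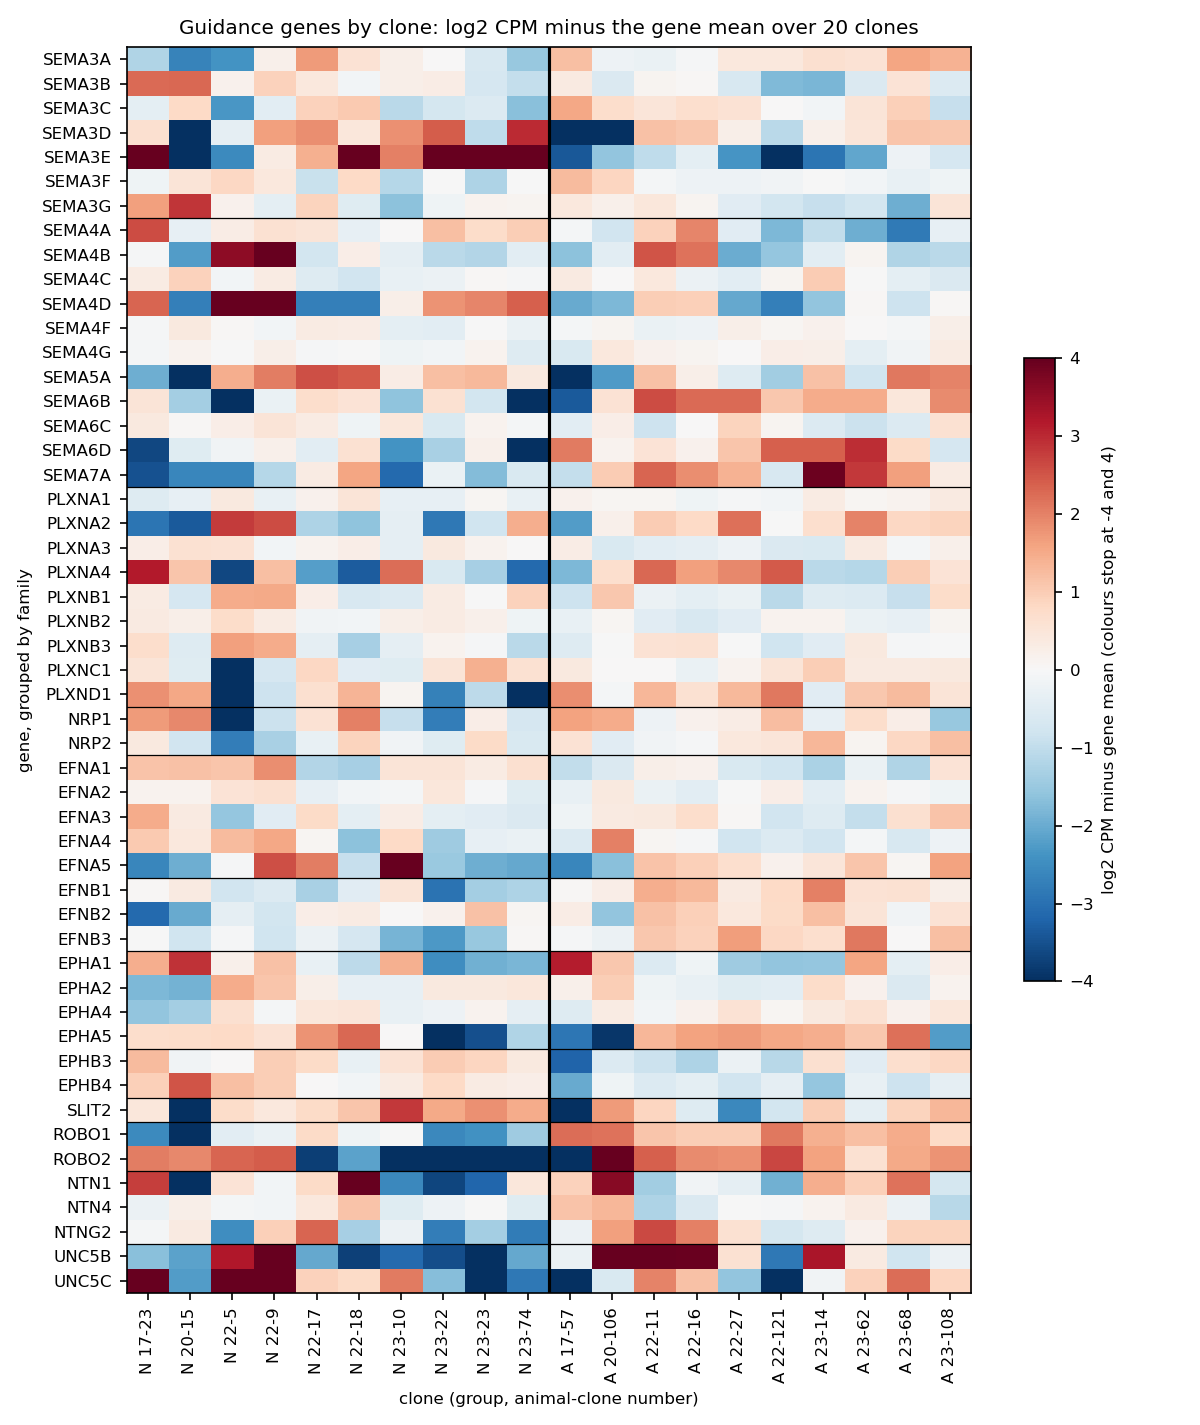
Log2 CPM of the 51 guidance genes tested (rows, by family) in each of 10 N and 10 A clones (columns, named by group, animal and clone number), as the difference from the gene's mean over 20 clones. Colours stop at -4 and 4. N clones 22-5 and 22-9 share high PLXNA2, SEMA4B, SEMA4D and UNC5B, and UNC5C is high in both and in N clone 17-23. ROBO2 is low in the 4 N clones of animal 23, in N clones 22-17 and 22-18 and in A clone 17-57.

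N clones 22-5 and 22-9, those with the high mesothelial sums, also shared a distinct set of guidance genes. Both lay above the other 8 N clones in 10 of the 51 genes (EFNA2, EFNA4, EPHA2, PLXNA2, PLXNB1, PLXNB3, ROBO2, SEMA4B, SEMA4D and UNC5B), or 19.6%, against 8.88% of all genes tested. In 2 genes, NRP2 and PLXNC1, both lay below the other N clones, or 3.92% against 7.84% of all genes tested. PLXNA2 was at 204 and 179 CPM in the pair and at 2.76 to 80.2 CPM in the other N clones. SEMA4B was at 26.9 and 116 CPM in the pair and at most 2.57 CPM in the other N clones, and the 2 highest A clones of SEMA4B were 22-11 and 22-16, with 12.7 and 10.0 CPM. UNC5B was at 31.7 and 150 CPM in the pair and at most 0.980 CPM in the other N clones. N clone 22-5 held the lowest NRP1, PLXND1 and PLXNC1 of all 20 clones, at 4.24, 1.02 and 3.84 CPM.

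With the pair left out, 9 guidance genes were called, against 14.2% of all genes tested. EFNB1 and PLXNB2 were no longer among them, and PLXNA2, ROBO2 and UNC5B were, all higher in A clones. The pair was chosen after the data were seen and held the highest N values of PLXNA2, ROBO2 and UNC5B. Leaving it out therefore raised their difference by construction, and the new calls are no separate test. UNC5B then had a log2 fold change of 5.39 (SE 1.15, adjusted p = 0.00887 by the quasi-likelihood test of edgeR), ROBO2 one of 4.91 (SE 1.23, adjusted p = 0.0191) and PLXNA2 one of 1.79 (SE 0.552, adjusted p = 0.0432). EPHB4, ROBO1, EFNB3, SEMA3E, SEMA6D and SEMA7A stayed past the threshold. With A clones 22-11 and 22-16 left out as well, 9 guidance genes were called, against 10.9% of all genes tested. EPHB4, ROBO1, EFNB3, SEMA3E and SEMA6D were again among them, with ROBO2, UNC5B, EPHA4 and SEMA4A.

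The 16 clones of animals 22 and 23 allowed a test of whether a gene's log2 fold change was the same in both animals. None of 49 guidance genes passed an adjusted p under 0.05 in edgeR's quasi-likelihood test of the interaction, against 0.0310% of all genes tested. DESeq2 called 2, NTN1 and ROBO2. Its share of all genes for the interaction is not given, so these 2 calls cannot be set against a background. For A against N clones DESeq2 called 27.4% of all genes, against 20.6% in edgeR. At an unadjusted p under 0.05 there were 11 guidance genes, or 22.4%, against 9.06% of all genes tested. In 10 of these 11 the log2 fold change was higher in animal 23, and in SEMA4A it was lower.

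NTN1 ran in opposite directions in the 2 animals. In animal 22 its N clones held 25.0, 39.3, 45.6 and 567 CPM and its A clones 6.94, 10.2, 20.9 and 24.4 CPM, so the groups did not overlap. In animal 23 the N clones held 2.02, 2.88, 4.36 and 36.9 CPM and the A clones 16.6, 52.5, 73.7 and 122 CPM, with 3 A clones above every N clone. The interaction was 5.95 on the log2 scale (SE 1.62, unadjusted p = 0.00248, adjusted p = 0.319 by the quasi-likelihood test of edgeR). ROBO2 separated the groups in animal 23, with 0 counts in all 4 N clones and 2.94 to 6.81 CPM in the 4 A clones. In animal 22 it did not, with A clones at 7.09 to 12.7 CPM. There N clones 22-17 and 22-18 held 0.0448 and 0.356 CPM. N clones 22-5 and 22-9, those with the high mesothelial sums, held 10.1 and 10.6 CPM. The part of this pair in the interactions was not tested. The interaction of ROBO2 had an unadjusted p of 0.00327 and an adjusted p of 0.332 (same test). Its fitted size depends on the prior count, since a group was at 0.

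SEMA5A also differed in direction. Its mean log2 CPM difference was -2.26 in animal 22 and 0.32 in animal 23, an interaction of 2.63 (SE 0.818, adjusted p = 0.375). For EPHA5 the differences were 0.17 and 2.84, and for UNC5C -3.63 and 2.77, with interactions of 2.62 (SE 1.19, adjusted p = 0.537) and 3.93 (SE 2.02, adjusted p = 0.588). UNC5C was at 118 and 79.8 CPM in N clones 22-5 and 22-9. In N clones 22-17 and 22-18 it was at 8.02 and 7.13 CPM, and in A clones of animal 22 at 0 to 16.8 CPM. The called genes lay on the same side of 0 in both animals. These animals gave 16 of the 20 clones behind the calls, so the shared sign is no separate test. EPHB4 and EFNB1 had interactions of 0.01 (SE 0.433) and 0.03 (SE 0.801), and ROBO1 one of 1.16 (SE 0.696).

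**Figure D5:**
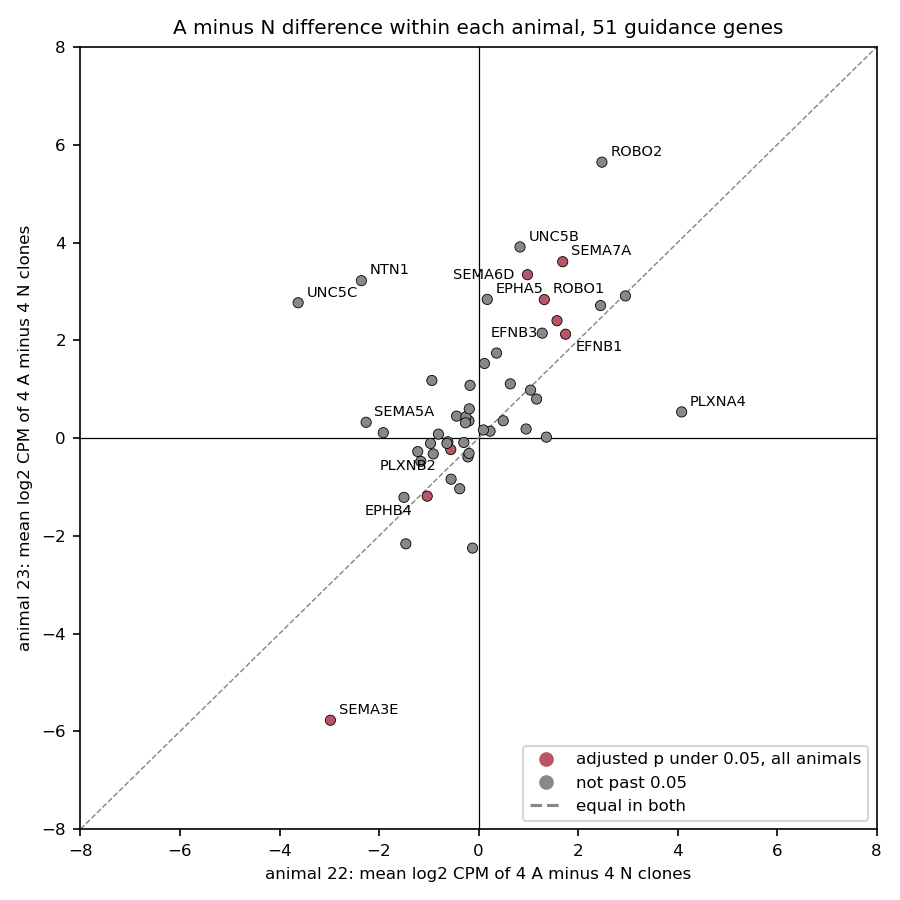
Mean log2 CPM of the 4 A clones minus that of the 4 N clones, in animal 22 (x axis) and animal 23 (y axis), for the 51 guidance genes tested. Red marks genes called over all animals. The 8 red genes, which were called with these same clones included, have the same sign in both animals. NTN1 and UNC5C lie at -2.35 and -3.63 in animal 22 and at 3.22 and 2.77 in animal 23.

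A list of 62 other genes of these pathways gave 47 tested genes, of which 8 were called, 5 higher and 3 lower in A clones, or 17.0% against 20.6% of all genes tested. Among the co-receptors and further ligands 4 of 9 were called. RGMB, a ligand of neogenin, had a log2 fold change of 1.25 (SE 0.324, adjusted p = 0.0142). CHL1, an adhesion molecule of the L1 family, was at 2.84 (SE 0.931, adjusted p = 0.0401) and FLT1, a receptor of vascular endothelial growth factor, at 1.6 (SE 0.502, adjusted p = 0.0331). FLRT3, a membrane protein that binds UNC5 and Robo receptors, was lower, at -1.98 (SE 0.529, adjusted p = 0.0166, same test for all 4). The netrin receptor DCC was not tested, with at most 8 counts in any clone.

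Among the cytoplasmic partners 4 of 26 were called. The Slit-Robo GTPase-activating proteins differed in sign, SRGAP1 at 0.42 (SE 0.135, adjusted p = 0.0378) and SRGAP2 at -0.63 (SE 0.196, adjusted p = 0.0312). The tyrosine kinase gene ABL1 had a log2 fold change of 0.69 (SE 0.173, adjusted p = 0.0121), and PTK2, which encodes focal adhesion kinase, one of -0.34 (SE 0.0768, adjusted p = 0.00746), with 9 A clones below every N clone. Of the 12 cytoskeletal effectors, which include RHOA, RAC1, CDC42 and CFL1, 0 were called by edgeR's quasi-likelihood test and 0 were at an unadjusted p under 0.05, and DESeq2 and limma-voom called 0. The calls of CHL1, SRGAP1, FLT1 and SRGAP2 were lost in 13, 12, 6 and 5 of 20 fits made with 1 clone omitted, and those of RGMB, FLRT3, ABL1 and PTK2 in 0.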

How the data were processed

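The deposited table holds whole-number read counts, not normalized, by gene symbol for the 20 clones. Per the labels and the paper's methods, RNA libraries were made with a directional kit and sequenced as read pairs, and the submitters' processing notes name Trimmomatic 0.36, STAR 2.5.2b, Subread 1.5.2 and the genome build ARS-UCD1.2. Unique reads within exons were counted. How strand and overlapping genes were handled in counting is not given in the sources used here, so counts of overlapping genes are uncertain. By the RefSeq gene table, of a later assembly and used for names and neighbours only, 27 of the 70 guidance genes overlap another gene. No coordinates or sequences are given. The 1 row without a name took 0.113% to 0.333% of a library and was dropped.

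Counts were fitted with edgeR 4.0.16 in R 4.3.3 (TMM factors, low-count filter by condition with default settings, quasi-likelihood F test with robust dispersions, animal as a block). Log2 CPM used a prior count of 2. A gene was called at an adjusted p under 0.05, and changes of at least 2-fold were also counted. Alternatives were DESeq2 1.42.0, limma-voom 3.58.1, other size factors and filters, no block, single animals, and leaving out clones. The fits were also run on simulated counts that had no animal effect, so these runs could not check the block. The animal pairs the clones: within an animal, the mean deviations of its A and its N clones from the mean of their group had correlations of 0.253 (animal 17), 0.193 (animal 20), 0.241 (animal 22) and 0.440 (animal 23). No pair of libraries of a group agreed within sampling noise. The closest were A clones 22-11 and 22-16, with a mean chi-square per gene of 23.8, against 54.1 for the next closest pair.

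The guidance genes, the list of other pathway genes and the marker lists were chosen with earlier results of these data known. Genes were named if called, if their groups did not overlap, if highest in mean CPM or in absolute fold change within their family, if among the 3 widest in either group, or if left out with 10 or more counts in a clone. A further 16 tested guidance genes were added to the text once their values were known. Leaving out the clones with high mesothelial sums was also chosen after seeing the data.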

Additional observations from a re-analysis of the deposited data

Results flagged for a closer look

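Of 98 groups of 10 clones examined (each named tested gene in A and in N clones), 16 held a highest or lowest clone set apart from the next by a gap, as a share of the group's log2 CPM range, above Dixon's 95% critical value. Among independent groups chosen without regard to their values, chance flags about 1 in 20, or 4.9 of 98. Here some genes were named for wide ranges or large fold changes and the same clones recur, so 4.9 is only a rough guide. All but PLXNC1 concern clones of animals 17 and 20, which gave 1 clone per condition, so that clone and animal cannot be told apart.

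N clone 20-15 was lowest for SEMA3D (gap 0.523, 0 CPM against 2.04 to 33.7 in the other N clones), SEMA5A (0.505, 0.307 CPM against 9.91 to 229), SLIT2 (0.718, 1.11 CPM against 85.5 to 455) and FLT1 (0.519, 0.737 CPM against 11.1 to 124). It was highest for EPHB4 (0.505, 148 CPM against 24.2 to 59.5). N clone 17-23 was highest for SEMA4A (0.479, 13.9 CPM against 1.72 to 5.18).

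A clone 17-57 was lowest for SEMA6B (0.640, 0.136 CPM against 3.31 to 15.1 in the other A clones), PLXNA2 (0.497, 6.20 CPM against 28.9 to 136), EPHB3 (0.490, 1.84 CPM against 7.56 to 31.9), SLIT2 (0.506, 0.409 CPM against 10.5 to 205), ROBO2 (0.573, 0 CPM against 2.94 to 37.5) and FLRT3 (0.570, 0.272 CPM against 3.80 to 22.7). A clone 20-106 was lowest for EFNB2 (0.520, 27.7 CPM against 76.2 to 194) and SRGAP2 (0.484, 21.5 CPM against 29.4 to 41.2), and highest for EFNA4 (0.696, 3.73 CPM against 0.458 to 0.903).

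N clone 22-5 was lowest for PLXNC1 (0.663, 3.84 CPM against 66.2 to 278).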

How the results depend on the processing

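The 8 guidance genes called were called with DESeq2 size factors and upper-quartile normalization as well. The count was 16 with DESeq2 (9 higher, 7 lower; 31.4%, against 27.4% of all genes), 4 of 31 with at least 10 counts in every clone (12.9% against 21.1%), 1 in animal 22 alone (EFNB1; 1.89% against 1.15%), 6 in animal 23 alone (12% against 6.22%) and 6 to 12 when 1 clone was left out (6 without N clone 23-22, 12 without N clone 22-17 or 22-18), where 15.3% to 24.1% of all genes were called. SEMA3E, SEMA7A, EFNB1, EFNB3, EPHB4 and ROBO1 kept their call in all 20 of these fits, SEMA6D lost it in 1 and PLXNB2 in 12. Of the pathway partners 1 was called in animal 22 alone (2.00% against 1.15% of all genes), 2 in animal 23 alone (4.26% against 6.22%), 4 without clones 22-5, 22-9, 22-11 and 22-16 (8.51% against 10.9%), and 6 to 12 when 1 clone was left out. DESeq2 called 2 interactions, a count given without its share over all genes. Without TMM factors 1 guidance gene did not overlap, again without the share over all genes. Neither of these counts can therefore be set against a background. The cause of these changes was not tested.

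Without animal as a replicate block, 10 guidance genes were called (5 higher, 5 lower, all 8 among them; 19.6%) and 6 partners (12.8%), against 16.8% of all genes. NRP1 then had a log2 fold change of -0.025 and NTN4 of 0.095.

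Over 49 named genes the sign turned in 52 fits in all, none of them of a guidance gene that was called. The called genes were picked on the same clones that these fits reuse, so their constant sign is no separate test. In animal 22 alone the log2 fold changes were -0.44 for SEMA3A, 0.46 for SEMA4A, -0.57 for PLXNA2, -0.16 for NRP1, -0.20 for EPHA4, -0.0021 for EPHA5 and -0.42 for UNC5B. In animal 23 alone they were 0.17 for SEMA4B, 0.61 for SEMA5A, 2.51 for NTN1, 0.17 for NTN4, 1.01 for UNC5C, 0.28 for PLXNB3 and -0.10 for PLXNC1. Limma-voom gave 0.81 for EFNA5, 0.050 for EPHA2, 0.74 for NTN1 and 0.11 for PLXNB3. Without N clones 22-5 and 22-9 they were 0.63 for SEMA4B, -0.094 for NRP1, 0.34 for EPHA2, 0.27 for UNC5C, 0.36 for PLXNB3 and -0.062 for PLXNC1. Without A clones 22-11 and 22-16 as well they were 0.0067 for EFNA2, 0.40 for EPHA2, 1.14 for NTN1, 0.18 for NTN4 and 0.17 for PLXNB3. With neither filter nor block, EPHA3 was at -3.27 and EPHA7 at -0.38. Leaving out 1 clone gave -6.8e-05 to 0.59 for NRP1, -1.33 to 0.72 for EFNA5, -0.35 to 0.10 for EPHA2, -0.78 to 0.85 for NTN1 and -0.18 to 0.14 for NTN4.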
